A study of Mus musculus with 12 samples.

Results

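The comparison described here set 6 *Alkbh5*-/- (KO) libraries against 6 wild-type (WT) libraries of mouse oocytes, with the stage of meiotic maturation held as a covariate, and asked which transcripts differed in the same direction at every stage. All 12 libraries of the series took part, 2 for each genotype at the germinal vesicle stage of arrested oocytes (GV), at germinal vesicle breakdown (GVBD) and at metaphase II (MII). Both genotypes were on a C57BL/6 background, and the KO mice lacked *Alkbh5* in every tissue, through a CRISPR-Cas9 deletion of the first exon with its start codon. Fully grown GV oocytes came from young females primed with pregnant mare serum gonadotropin, were freed of cumulus cells and zona, and were lysed as small pools either at once or after shorter or longer culture. Stage followed time in culture, and the study describes poor GVBD and polar body release in KO oocytes, so KO libraries labelled GVBD or MII may hold oocytes of earlier stages. The study also reports smaller KO GV oocytes, more of them with a non-surrounded nucleolus, and proposes impaired growth. Hence the GV pools of the genotypes may differ in growth as well.

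ALKBH5 removes the methyl group from N6-methyladenosine (m6A), the most common internal modification of messenger RNA, which readers of the YTH and IGF2BP families bind and which influences splicing, export, storage and decay. A fully grown oocyte makes almost no new RNA. It lives on stored maternal transcripts, which are translated or cleared in steps as meiosis resumes.

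Values are read counts of each gene, scaled by the ERCC spike-in, a mix of synthetic RNAs added to each lysed pool, so that a scaled count follows RNA per pool and not only a share of the library. More oocytes in a pool and more RNA per oocyte cannot be told apart on this scale. Counts over genes summed to between 28335815 and 39409401 per library, and between 19837 and 24436 genes had at least 1 count, with the lowest number in KO MII replicate 2. Each log2 fold change below is KO over WT, positive when KO was higher, with its standard error (SE). Adjusted p-values come from the quasi-likelihood test of edgeR with Benjamini-Hochberg adjustment over all genes tested. A gene was called when its adjusted p was under 0.05 and its log2 fold change was at least 1 in size. The oocyte markers were abundant in both genotypes: over 16 genes such as *Zp3* and *Gdf9*, summed scaled counts were 762234 to 1429220 in WT and 959683 to 1398830 in KO. Red blood cell and liver markers varied widely between libraries of the same group, from 213 to 220641 and from 1.93 to 27268 summed scaled counts in WT and from 27.2 to 238902 and from 13 to 36051 in KO.

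*Alkbh5* itself, the gene deleted in KO, lies on the plus strand of chromosome 11 (60536381 to 60558512, GRCm38; ENSMUSG00000042650). WT libraries had 6354 and 8505 (GV), 13653 and 4812 (GVBD) and 5587 and 3020 (MII) scaled counts of it. KO libraries had 260 and 94.4 (GV), 88.8 and 124 (GVBD) and 94.1 and 50.9 (MII). The lowest WT library thus lay more than an order of magnitude above the highest KO library. Over the stages the log2 fold change was −5.90 ± 0.42 (SE, adjusted p = 1.83e-05), and by stage it was −5.39 (GV), −6.43 (GVBD) and −5.89 (MII). Unscaled, 54 to 143 reads per KO library were still assigned to the gene. The files give 1 count per gene, so reads of exons 2 to 4, outside the deletion, cannot be told apart from those of exon 1.

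Of 22046 genes tested, 274 were called over the stages (1.24%), of which 194 were higher in KO (0.88%) and 80 were lower (0.363%). The median gene was itself shifted toward KO, by 0.29 on the log2 scale over the stages, and by stage by 0.36 (GV), 0.21 (GVBD) and 0.27 (MII). With TMM scaling, in which the middle of the distribution is taken as unchanged and the median was 0.02, 249 genes were called higher (1.13%) and 345 lower (1.56%), and 238 of the 274 genes were called again. The balance of higher and lower genes hence depended on the scale. Most of the 274 genes were called on either scale, but TMM scaling called 594 in all, so the full set depended on it too. The number called rested on single libraries: leaving out any of the 12 in turn moved it by more than 1.5 times, from 52 genes without KO GVBD replicate 1 to 943 without KO MII replicate 2. A core of 48 genes, 26 higher and 22 lower, was called in all 12 of these fits, and each of these 48 was also called with TMM scaling, with a replicate block and by DESeq2.

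Of the 274 genes called, 268 had the same sign at GV, GVBD and MII: all 194 that were higher and 74 of the 80 that were lower. Among all genes tested the share was 45.1%, with 35.4% higher and 9.77% lower at every stage. A gene is more readily called when its stages move together, so this share was partly fixed by the call. The stage contrasts share no library, and a stricter reading asks whether both KO libraries lay beyond both WT libraries at each stage. This held for 184 of the 194 higher genes (5.39% of all genes tested) and for 71 of the 80 lower genes (1.48% of all genes tested). Summed markers of granulosa and cumulus cells, the somatic cells around the oocyte, were separated in the same way, with WT at 1381 and 1790 (GV), 1404 and 1224 (GVBD) and 1425 and 791 (MII) scaled counts and KO at 2032 and 2036, 3021 and 1733, and 1777 and 1707. Of 15 such markers 11 could be tested, 2 were higher at every stage and none was called, and their part in the higher genes was not tested. Median log2 fold changes of the higher genes were 1.42 (GV), 1.72 (GVBD) and 1.92 (MII). Those of the lower genes were −1.86, −2.59 and −2.19. For 11 called genes, 1 genotype stayed at or under 3 counts in all its 6 libraries, so their fitted folds carry no exact size.

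**Figure D1:**
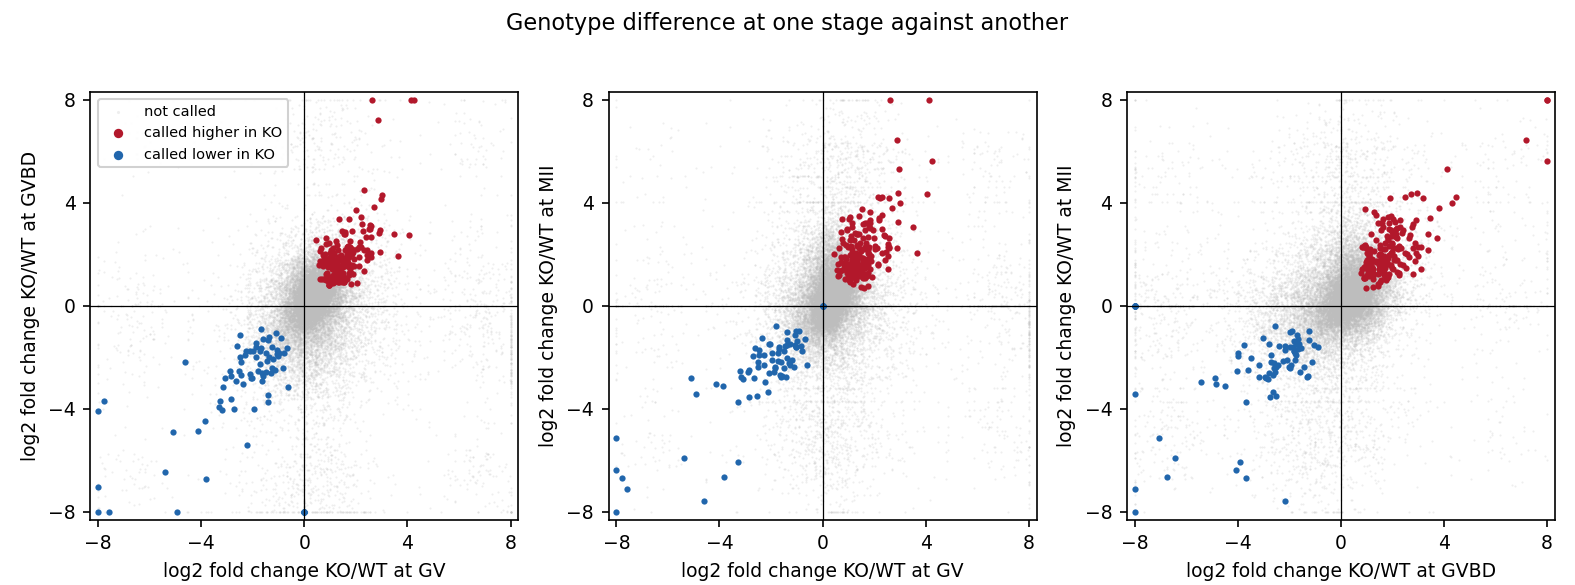
Log2 fold change of KO over WT at each stage against each other stage, for 22046 genes tested (grey), 194 genes called higher in KO over the stages (red) and 80 called lower (blue), with values beyond 8 drawn at the edge. The red genes fill the upper right quadrant and 74 of the blue genes the lower left, while 6 blue genes lie at 0 for GV and MII.

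The 6 called genes without a shared direction were *Krt14*, *Krt5*, *Krt1*, *Krt6b*, *Krt16* and *Sprr2a1*, which encode keratins and a cornified envelope protein of skin. *Krt14* had 1278 and 666 counts in the WT GVBD libraries and 0 in the other 10. The same held for the remaining 5, each with counts only in WT GVBD, so these calls came from a single group and are no effect over the stages. Summed scaled counts of 7 keratinocyte markers were 4389 and 2268 in that group and 261 to 694 elsewhere. A test of the genotype by stage interaction, which asks directly whether the genotype difference changed between stages, called 2 genes of 22046 (0.00907%), with 1417 at an unadjusted p under 0.05. None of the 274 genes was among them, and their lowest adjusted interaction p was 0.452. An interaction p that misses the threshold does not show equal effects. The number of interaction calls was unstable, with 236 under TMM scaling, 208 by DESeq2 and 119 without KO MII replicate 2.

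To read the direction in libraries that had no part in choosing the genes, the fit was repeated on 2 stages and the genes called there were read at the stage left out. Without MII, 57 genes were called higher (0.267%) and 42 lower (0.197%). At MII, 55 of the 57 could be measured and all 55 were higher in KO, with a median log2 fold change of 1.93, against 63.6% of all 17186 genes measured at both. Of the lower genes 38 could be measured and 34 were lower at MII (median −2.11), against 36.4% of all genes. The 4 exceptions were *Gja1*, *Reg3d*, *Gm18629* and an unnamed Ensembl gene.

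Fewer genes passed when another stage was left out. Without GV, 8 were called higher (0.0381%) and 14 lower (0.0667%). At GV all 8 of the higher genes were higher and 9 of the 10 measured lower genes were lower, the exception being *Fut10*, against 72.8% and 27.2% of all genes. Without GVBD, 2 genes were called higher (0.00952%) and 3 lower (0.0143%), and all 5 kept their direction at GVBD. Of all genes measured there, 61.3% were higher and 38.7% lower, so these 5 genes say little alone. Under TMM scaling, where the background share is close to an even split, 116 of 131 higher genes and 116 of 122 lower genes kept their direction at GV. There 38 of 41 and 70 of 72 did so at GVBD, and 51 of 51 and 163 of 195 at MII. The direction of genes chosen at a pair of stages was thus mostly found again at the remaining stage, on either scale.

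**Figure D2:**
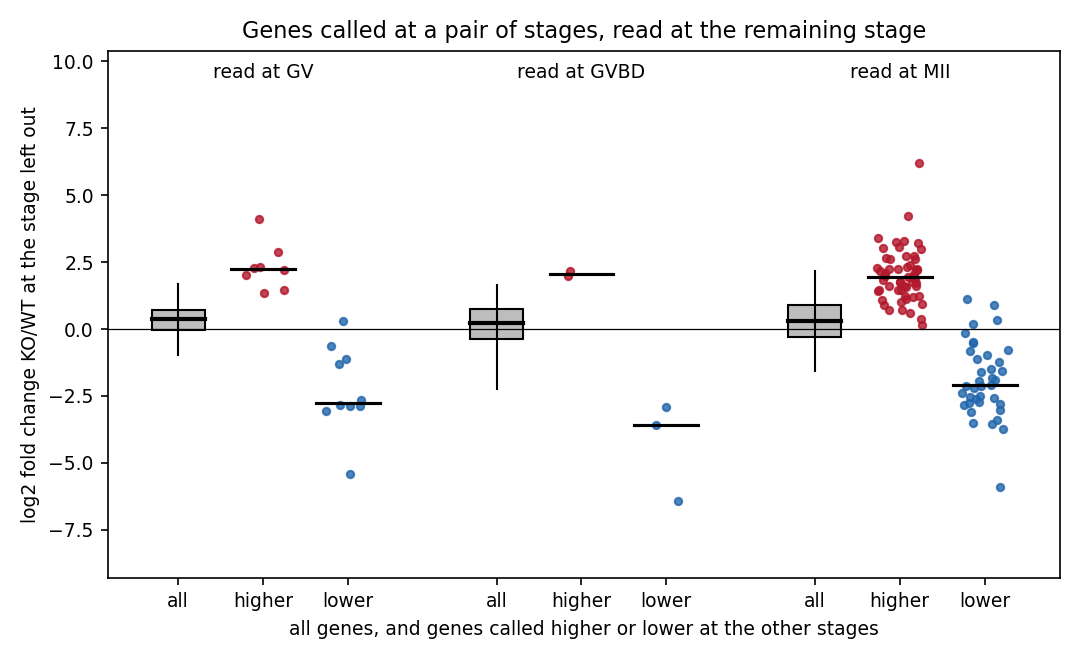
Log2 fold change of KO over WT at the stage left out, for all genes measured (box from the lower to the upper quartile, line at the median, whiskers from the 5th to the 95th percentile) and for genes called higher (red) or lower (blue) at the other stages, with black bars at their medians. At MII all 55 higher genes lie above 0 and 34 of 38 lower genes below it.

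*Hmgn3* (chromosome 9, 83109948 to 83146685, minus strand) encodes a nucleosome-binding protein of the HMGN family, which loosens compacted chromatin. WT libraries had 104 and 151 (GV), 102 and 58.4 (GVBD) and 117 and 66 (MII) scaled counts. KO libraries had 739 and 434, 1011 and 746, and 587 and 1327. The genotypes were far apart at each stage, and the log2 fold change was 3.02 ± 0.37 (adjusted p = 0.00174). Its relative *Hmgn5*, on chromosome X (109004534 to 109013404, minus strand), went the other way. It had 997 to 1689 scaled counts in WT, with a median of 1315, and 178 to 690 in KO, with a median of 309 (−2.01 ± 0.32, adjusted p = 0.0102). By stage the difference was −1.13 (GV), −2.51 (GVBD) and −2.37 (MII). The other tested members, *Hmgn1* (0.48 ± 0.29, adjusted p = 0.393) and *Hmgn2* (−0.25 ± 0.36, adjusted p = 0.749), did not pass. Within this small family, 1 member hence rose and 1 fell. The family's median, 0.11, was −0.12 under TMM scaling.

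*Dpf3* (chromosome 12, 83213745 to 83487716, minus strand), a histone-reading subunit of BAF chromatin remodelling complexes, was among the most even changes. In order of stage its scaled counts were 1088 and 1108, 1299 and 933, and 669 and 754 in WT, and 6238 and 4552, 5640 and 4313, and 6532 and 4811 in KO. No KO library came within a factor of 3 of any WT library, and the log2 fold change was 2.48 ± 0.24 (adjusted p = 0.000307). *Prpf39* (chromosome 12, 65036333 to 65063386, plus strand), which encodes a U1 snRNP-associated splicing factor, had 313 to 575 scaled counts in WT and 1064 to 3690 in KO. Its log2 fold change was 2.62 ± 0.31 (adjusted p = 0.00157) and almost the same at each stage, at 2.59, 2.65 and 2.62. *Slc38a1* (chromosome 15, 96571418 to 96642913, minus strand), a glutamine transporter, ranged from 47.9 to 219 in WT and from 288 to 1320 in KO (2.60 ± 0.35, adjusted p = 0.00352). All 3 genes were called in every fit that left out a library.

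**Figure D3:**
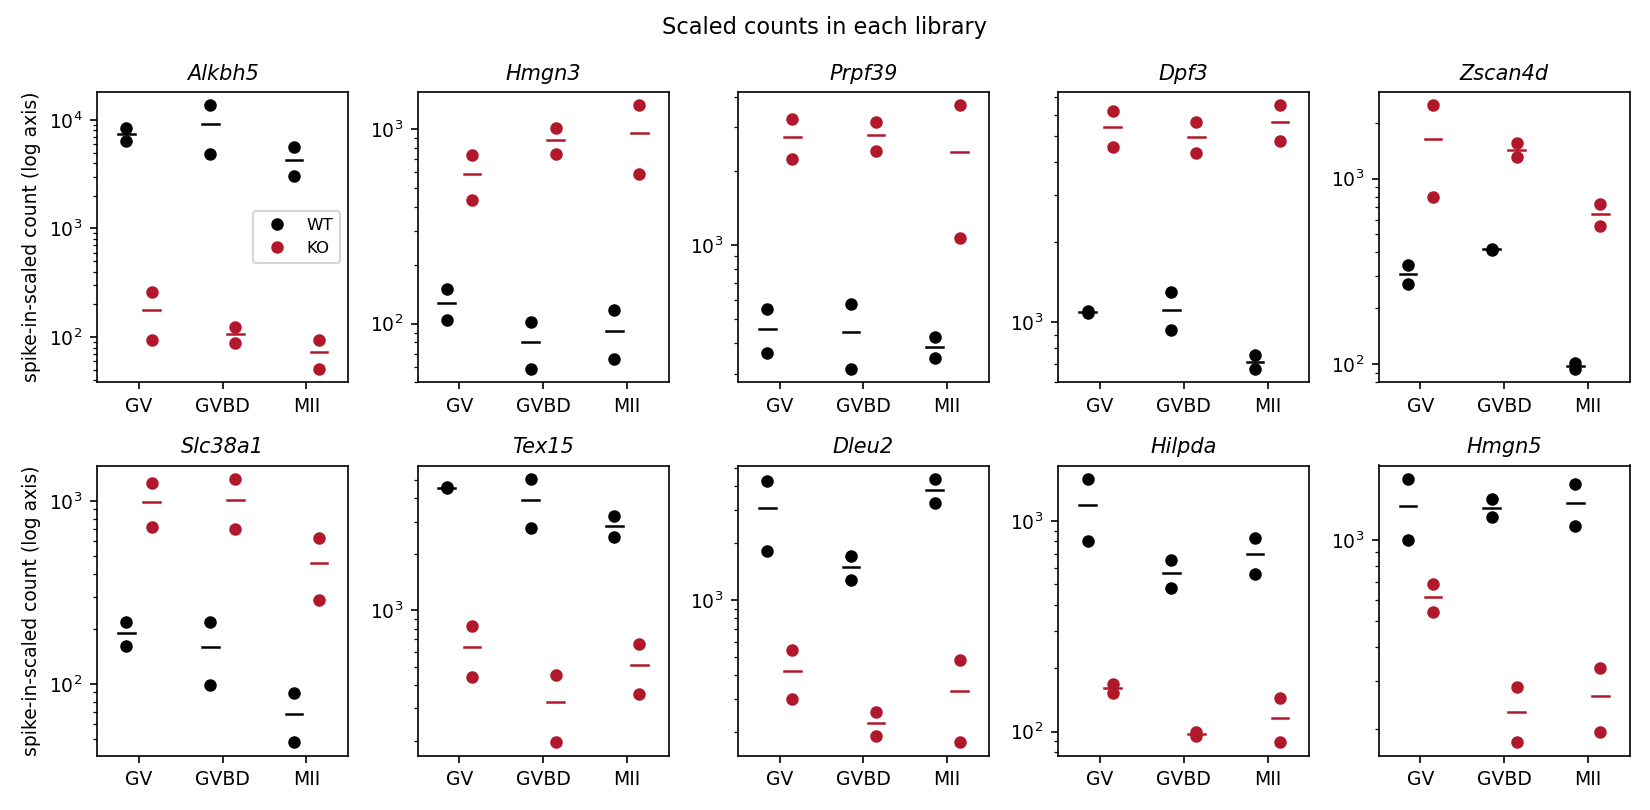
Spike-in-scaled counts of 10 genes in each library on a log axis, WT in black and KO in red, at GV, GVBD and MII, with short bars at the mean of 2 libraries. In each panel both KO points lie beyond both WT points at every stage.

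Other genes of the 12 highest had lower or more variable counts. *March11*, a membrane-bound ubiquitin ligase, fell steeply in both genotypes by MII, from 463 and 371 scaled counts at GV to 7.98 and 6.75 at MII in WT, and from 1846 and 1852 to 210 and 65.9 in KO. KO was higher at each stage (2.86 ± 0.42, adjusted p = 0.00607). *Defb41*, a beta-defensin, had 104 to 2476 scaled counts in WT and 783 to 9376 in KO, with overlap between stages but none within a stage (2.51 ± 0.40, adjusted p = 0.0102). *Mb21d2* (2.37 ± 0.35, adjusted p = 0.00638) ranged from 102 to 1148 in WT and from 521 to 3935 in KO. *Fxyd6*, which encodes a modulator of the sodium pump, was higher as well (2.59 ± 0.47, adjusted p = 0.0194), although not without KO GVBD replicate 1 (adjusted p = 0.0793). *Armc3* (2.41 ± 0.44, adjusted p = 0.0194) and *Nat8f3* (3.18 ± 0.69, adjusted p = 0.0422) passed in 6 and 2 of the 12 fits that left out a library, and not without KO GVBD replicate 1 (adjusted p = 0.0559 and adjusted p = 0.122). *Nat8f3* is uncertain for a further reason: 75.8% of the 100-base stretches of its longest transcript also occur in *Nat8f6* or *Nat8f7*, and KO MII replicate 2 had 11.5 scaled counts against 348 in replicate 1.

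Several copies of the *Zscan4* cluster on chromosome 7 were higher in KO. These genes encode zinc finger proteins known from 2-cell embryos and from a 2-cell-like state of embryonic stem cells, where they serve telomere maintenance. *Zscan4d* (11161374 to 11166159, minus strand) had 271 and 343 (GV), 420 and 410 (GVBD) and 94.1 and 102 (MII) scaled counts in WT. In KO the values were 2485 and 792, 1304 and 1563, and 726 and 558. The log2 fold change was 2.30 ± 0.31 (adjusted p = 0.00352). *Zscan4e* had 5.58 to 91.2 scaled counts in WT and 97 to 488 in KO (2.86 ± 0.54, adjusted p = 0.0227). *Zscan4f* had 13 to 143 in WT and 79.1 to 352 in KO (2.20 ± 0.49, adjusted p = 0.0448). Both genotypes were separated at each stage for these 3 genes, whereas only *Zscan4d* was called in all 12 fits that left out a library, *Zscan4e* in 7 and *Zscan4f* in 2. Without KO GVBD replicate 1 neither *Zscan4e* (adjusted p = 0.0559) nor *Zscan4f* (adjusted p = 0.123) passed. The most abundant copy, *Zscan4c*, had 426 to 1404 scaled counts in WT and 1082 to 3490 in KO, with overlap at GV, and did not pass (1.03 ± 0.27, adjusted p = 0.0733).

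The copies are hard to tell apart by sequence. Of the 100-base stretches of the longest transcript, 29.6% were shared with another gene for *Zscan4d*, 84.1% for *Zscan4e* and 89.5% for *Zscan4f*, so that uniquely mapped reads see only part of the latter genes. Their promoters were alike too, as the following stretches from RefSeq (GRCm38.p6) upstream of the annotated start sites show, with the TATA motif TATAAAA in capitals. They lie at chr7:11005631-11005713 on the plus strand for *Zscan4c*, at chr7:11166191-11166273 on the minus strand for *Zscan4d* and at chr7:11397824-11397906 on the plus strand for *Zscan4f*.
Zscan4c: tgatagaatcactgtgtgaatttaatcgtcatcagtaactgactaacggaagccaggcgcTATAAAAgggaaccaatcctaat
Zscan4d: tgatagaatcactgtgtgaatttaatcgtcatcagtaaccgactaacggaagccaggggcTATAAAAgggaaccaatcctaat
Zscan4f: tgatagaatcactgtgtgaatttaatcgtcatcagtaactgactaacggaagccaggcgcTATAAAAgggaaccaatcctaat
Over these 83 bases *Zscan4c* and *Zscan4f* were identical and *Zscan4d* differed from both at 2 positions. On the strand of the gene, the motif occurs in the 250 bases before the start site in 3.02% of 32851 promoters. It was found for 5 of 107 called higher genes with a promoter in that table (4.67%), 3 of 49 called lower genes (6.12%) and 2.36% of 13676 tested genes. The 5 include *Zscan4d* and *Zscan4f*, near-identical copies for which the motif is shown above, so their share was partly fixed in advance.

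Across the list of *Zscan4* and other genes of the 2-cell state, 13 of 22 members could be tested, 3 were called higher (23.1%, against 0.88% of all genes) and none lower, and 8 were higher at every stage (61.5%, against 35.4%). The median log2 fold change was 0.86, against 0.29 over all genes, and 0.68 under TMM scaling. The 3 called members are copies from the *Zscan4* cluster that share sequence, so they are not separate members. The list was also drawn up with earlier results of these data known, so these shares only describe it. Outside the cluster no member passed. *Tcstv1* (0.85 ± 0.23, adjusted p = 0.083) and *Tcstv3* (0.79 ± 0.24, adjusted p = 0.116) had KO above WT at every stage, as did *Usp17lb* (1.58 ± 0.48, adjusted p = 0.114). The *Obox* homeobox genes, which are also active around the 2-cell stage and are among the most abundant oocyte transcripts, had a median of 0.09 over 6 members, and of −0.11 under TMM scaling, with 0 called.

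Among the genes that were lower in KO, *Tex15* and *Dleu2* were abundant and even. *Tex15* (chromosome 8, 33516738 to 33585582, plus strand) is needed for meiotic recombination and transposon silencing in male germ cells. WT libraries had 4523 and 4585 (GV), 5094 and 2776 (GVBD) and 3213 and 2476 (MII) scaled counts, against 830 and 440, 196 and 451, and 660 and 355 in KO. The log2 fold change was −2.97 ± 0.33 (adjusted p = 0.000686), with the highest KO library well under the lowest WT library. *Dleu2* (chromosome 14, 61602839 to 61682373, minus strand) is the noncoding host transcript of the miR-15a and miR-16-1 precursors. It ranged from 1272 to 4387 in WT and from 176 to 543 in KO (−3.05 ± 0.34, adjusted p = 0.000686). The use of strand in counting is not given in the sources used here, so reads of genes on the opposite strand cannot be set apart from those of *Dleu2*.

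*Akr1b8* (chromosome 6, 34354119 to 34368463, plus strand), an aldo-keto reductase, had the smallest adjusted p after *Alkbh5*. WT libraries had 3383 and 3279 (GV), 2887 and 4019 (GVBD) and 512 and 394 (MII) scaled counts, against 521 and 529, 493 and 432, and 79.1 and 49.4 in KO. Both genotypes dropped by MII, and the log2 fold changes by stage were −2.66, −2.90 and −2.82 (−2.79 ± 0.23 over the stages, adjusted p = 5.26e-05). *Hilpda*, a hypoxia-inducible protein of lipid droplets, ranged from 479 to 1586 in WT and from 88.8 to 168 in KO (−2.67 ± 0.29, adjusted p = 0.000686). *Ptpn3*, a protein tyrosine phosphatase, ranged from 290 to 761 in WT and from 17.9 to 133 in KO (−2.86 ± 0.45, adjusted p = 0.0101). *Reg3g*, a secreted lectin with antibacterial activity, ranged from 476 to 848 in WT and from 81.5 to 259 in KO (−2.36 ± 0.34, adjusted p = 0.00517). Each of these 4 genes was called in all 12 fits that left out a library.

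*Esp4*, a gene of the exocrine gland-secreted peptides that act as pheromones, had 39.9 to 516 scaled counts in WT and 0 to 14 in KO (−5.34 ± 0.95, adjusted p = 0.0163). *Olfr1369-ps1*, annotated as protein-coding although its symbol is that of an olfactory receptor pseudogene, had 189 to 2670 in WT and 37 to 98.3 in KO (−4.01 ± 0.56, adjusted p = 0.00456). *Cttnbp2*, whose protein binds cortactin, had 183 to 415 in WT and 10.2 to 119 in KO (−2.85 ± 0.49, adjusted p = 0.0154). Without KO GVBD replicate 1 neither *Esp4* (adjusted p = 0.054) nor *Cttnbp2* (adjusted p = 0.0644) passed.

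*Raet1e* and *Raet1d* encode ligands of the NKG2D receptor of natural killer cells and were lower together. WT libraries had 452 and 396 (GV), 898 and 640 (GVBD) and 124 and 95.9 (MII) scaled counts of *Raet1e*, against 41.9 and 45.9, 95.4 and 25.3, and 17 and 0 in KO (−3.56 ± 0.59, adjusted p = 0.0137). *Raet1d*, added after its values were seen, had 466 to 4378 in WT and 116 to 860 in KO (−2.05 ± 0.28, adjusted p = 0.00382). The annotated spans of these genes overlap on chromosome 10 and end at the same base (22374139), and 36% of the 100-base stretches of *Raet1d* and 19.9% of those of *Raet1e* recur in other genes, so reads may be divided between them. Stretches of 100 bases before a start site of each, from RefSeq on the plus strand, show how close they are, with the bases that differ in capitals. They lie at chr10:22361754-22361853 and at chr10:22173359-22173458.
Raet1d: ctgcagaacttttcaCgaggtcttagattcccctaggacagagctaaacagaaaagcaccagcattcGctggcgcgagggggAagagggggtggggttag
Raet1e: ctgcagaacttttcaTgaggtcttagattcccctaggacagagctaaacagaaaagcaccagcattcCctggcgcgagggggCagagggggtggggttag
The stretches were identical at 97% of positions. *Cd59a* and *Cd59b*, neighbouring genes for inhibitors of the complement attack complex, were a further pair that was lower together (−1.21 ± 0.27, adjusted p = 0.0462, and −1.31 ± 0.26, adjusted p = 0.0283, chosen after their values were seen). *Cd59a* passed in 1 and *Cd59b* in 3 of the 12 fits that left out a library. Of their 100-base stretches 0.293% and 0.717% recur elsewhere.

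Zinc finger genes of the *Zfp* series, most of which encode DNA-binding repressors, contributed 5 calls among 360 tested members of 407, a share of 1.39% that lay near the 1.24% of all genes. By direction the shares were 0.278% called higher and 1.11% lower, against 0.88% and 0.363% of all genes. They rest on 1 and 4 genes, and this difference was not tested. *Zfp82*, *Zfp820*, *Zfp870* and *Zfp992* were lower in KO and *Zfp618* was higher. *Zfp82* had 49.4 to 384 scaled counts in WT and 3.58 to 60 in KO (−3.78 ± 0.69, adjusted p = 0.0201), and *Zfp820* had 131 to 372 in WT and 17.2 to 71.1 in KO (−2.49 ± 0.43, adjusted p = 0.0154). *Zfp870* had 123 to 217 in WT and 12.9 to 81.6 in KO (−2.32 ± 0.40, adjusted p = 0.0154). *Zfp820* and *Zfp870* did not pass without KO GVBD replicate 1 (adjusted p = 0.0559 and adjusted p = 0.054), nor did *Zfp82* (adjusted p = 0.0716), which passed in 7 of 12 such fits. *Zfp992* (−1.45 ± 0.31, adjusted p = 0.0401) and *Zfp618* (1.96 ± 0.45, adjusted p = 0.0484) passed in 2 each, and not without that library (adjusted p = 0.1252 and adjusted p = 0.105). Of the 100-base stretches of *Zfp82* 40.5%, and of *Zfp992* 28.6%, are shared with another gene. Over the whole list 92 members (25.6%) were higher and 74 (20.6%) lower at every stage, against 35.4% and 9.77% of all genes, and the median was 0.02, under the 0.29 of all genes. Under TMM scaling 3 members were called higher and 23 lower (1.13% and 1.56% of all genes), and the median was −0.25.

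The machinery that writes, reads and removes m6A was then considered. Besides *Alkbh5*, no member of the AlkB family passed among 9 genes tested. *Fto*, which encodes the other demethylase of m6A, had 48.2 to 170 scaled counts in WT and 69.5 to 340 in KO (0.84 ± 0.32, adjusted p = 0.18). None of 11 methyltransferase genes was called, with a median of 0.29, equal to that of all genes. The members with the lowest p were *Rbm15b*, a subunit that recruits the methyltransferase (1.34 ± 0.33, adjusted p = 0.0672), and *Mettl14*, a core subunit (0.71 ± 0.27, adjusted p = 0.175). *Rbm15b* did pass with TMM scaling (1.08, adjusted p = 0.014 by edgeR), a replicate block within stage (1.35, adjusted p = 0.0279 by edgeR) and DESeq2 (1.34, adjusted p = 0.00227). It did not in most fits that left out a library, so its outcome depended on the setting. None of 15 tested readers was called either, with a median of 0.17. *Ythdf2*, a reader that promotes decay, had 1229 to 5414 scaled counts in WT and 3400 to 8009 in KO (1.02 ± 0.27, adjusted p = 0.0747), and *Igf2bp3*, a reader that stabilises transcripts, had 944 to 2732 and 1761 to 3470 (0.86 ± 0.27, adjusted p = 0.118). The median of the readers was below 0 under TMM scaling (−0.09).

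Genes for the decay and storage of maternal mRNA were set beside all genes tested, of which 66.4% had a log2 fold change above 0, 35.4% were higher at every stage and 1.24% were called. Of 17 deadenylation genes, 14 (82.4%) were above 0 and 10 (58.8%) were higher at every stage, with a median of 0.44 and none called. *Cnot8* (0.90 ± 0.23, adjusted p = 0.0707) and *Cnot9* (0.83 ± 0.23, adjusted p = 0.0892), subunits of the CCR4-NOT deadenylase, had the lowest p. Of 32 decapping and exosome genes 81.2% were above 0 and 1 was called (3.12%). This was *Lsm1*, of the ring that guides decapping, which had 689 to 1220 scaled counts in WT and 1746 to 2198 in KO, without overlap between any libraries (1.10 ± 0.22, adjusted p = 0.0331). Of 29 polyadenylation and storage genes 65.5% were above 0 and 1 was called (3.45%). This was *Pabpn1l*, the oocyte form of a nuclear poly(A)-binding protein and an adaptor for clearance of maternal mRNA, with 4090 to 12749 in WT and 15803 to 25428 in KO (1.36 ± 0.28, adjusted p = 0.0342). *Lsm1* passed in 3 and *Pabpn1l* in 4 of the 12 fits that left out a library, and neither without KO GVBD replicate 1 (adjusted p = 0.0982 and adjusted p = 0.0716). The medians of these lists were 0.45 and 0.17, and the latter was −0.10 under TMM scaling.

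None of 18 genes of meiotic arrest and resumption was called, although 17 had a log2 fold change above 0 and 13 were higher at every stage (72.2%, against 35.4% of all genes higher at every stage). Their median was 0.42, and *Ccna2* (adjusted p = 0.129) and *Cdc25b* (adjusted p = 0.147) had the lowest p. None was called among 26 checkpoint and anaphase-promoting complex genes, 24 kinetochore and passenger genes, 16 cohesin and synaptonemal genes or 62 spindle genes, with medians from 0.24 to 0.39. None of 10 zona and oocyte-secreted genes was called (median 0.51), nor any of 8 subcortical maternal complex genes (median 0.23, and −0.05 under TMM scaling). In the latter, *Nlrp4f*, of the NLRP family, had the lowest p (−0.79 ± 0.22, adjusted p = 0.0859). It had 38861 to 68266 scaled counts in WT and 23799 to 38623 in KO, with KO below WT at every stage. With TMM scaling it passed (−1.03, adjusted p = 0.00195 by edgeR), but not with a replicate block within stage or by DESeq2. None of 12 DNA methylation and imprint genes passed, where *Dnmt3l*, the cofactor of de novo methylation, came nearest, with 1139 to 3114 in WT and 3370 to 10984 in KO (1.45 ± 0.34, adjusted p = 0.0513).

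The proteasome genes had 1 member called of 39 (2.56%, against 1.24% of all genes). This was *Psmb5*, a catalytic subunit, with 301 to 3485 scaled counts in WT and 1292 to 5964 in KO (1.67 ± 0.33, adjusted p = 0.0308). It passed in 4 of the 12 fits that left out a library, not without KO GVBD replicate 1 (adjusted p = 0.0937), and 24.9% of its 100-base stretches are shared with other genes. None of 84 ribosomal protein genes was called. By stage their median was 0.01 (GV), 0.36 (GVBD) and 0.90 (MII), and 38.1% of them kept their sign at every stage, against 45.1% of all genes. The 95 oxidative phosphorylation genes were alike, with medians of 0.16, 0.40 and 0.72 and 0 called. The 13 mRNAs encoded by the mitochondrial genome had medians of 0.23 (GV), −0.08 (GVBD) and −0.84 (MII), with 0 called. The trends of these lists along the stages were not tested, and no member had a called interaction. No call fell among 37 histone genes (median −0.05), 23 antioxidant genes (0.16, and −0.16 under TMM scaling) or 21 p53 and BCL2 genes (0.10, and −0.18 under TMM scaling) either.

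Interferon response genes had the lowest median of the 27 lists drawn up by function. Their median was −0.79 over 22 members, and by stage −0.24 (GV), −1.87 (GVBD) and −0.12 (MII), with 0 called. Of the 22 members, 7 were lower at every stage (31.8%, against 9.77% of all genes). The list's median level varied between replicate libraries by a standard deviation of 1.58 (log2 scale), the largest of the 27 lists. *Ifit1*, an interferon-induced RNA-binding protein gene, had 56.3 to 312 scaled counts in WT and 27.2 to 121 in KO (−1.23 ± 0.48, adjusted p = 0.192). Without GVBD the median was −0.29. Leukocyte markers were also low in KO at GVBD. Summed over 8 leukocyte markers, all of which were detected, scaled counts were 9666 and 4156 in WT GVBD and 590 and 951 in KO GVBD, while over the other libraries they ran from 723 to 2644 in WT and from 337 to 4111 in KO. The part of these cells in the result was not tested. None of the 8 markers was called, whereas *Lcp2*, an adaptor of T cell signalling (−1.79 ± 0.28, adjusted p = 0.00904), *Cd3g*, a chain of the T cell receptor complex (−2.19 ± 0.47, adjusted p = 0.0422), and *Ms4a4b*, a T cell membrane protein (−2.22 ± 0.46, adjusted p = 0.0376), named after their values were seen, were lower in KO at every stage. *Lcp2* was called in all 12 fits that left out a library and *Cd3g* and *Ms4a4b* in 2 each. At GV the leukocyte markers summed to 1945 and 2644 in WT and 4111 and 3048 in KO, while *Lcp2* had 781 and 936 scaled counts in WT and 366 and 381 in KO.

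**Figure D4:**
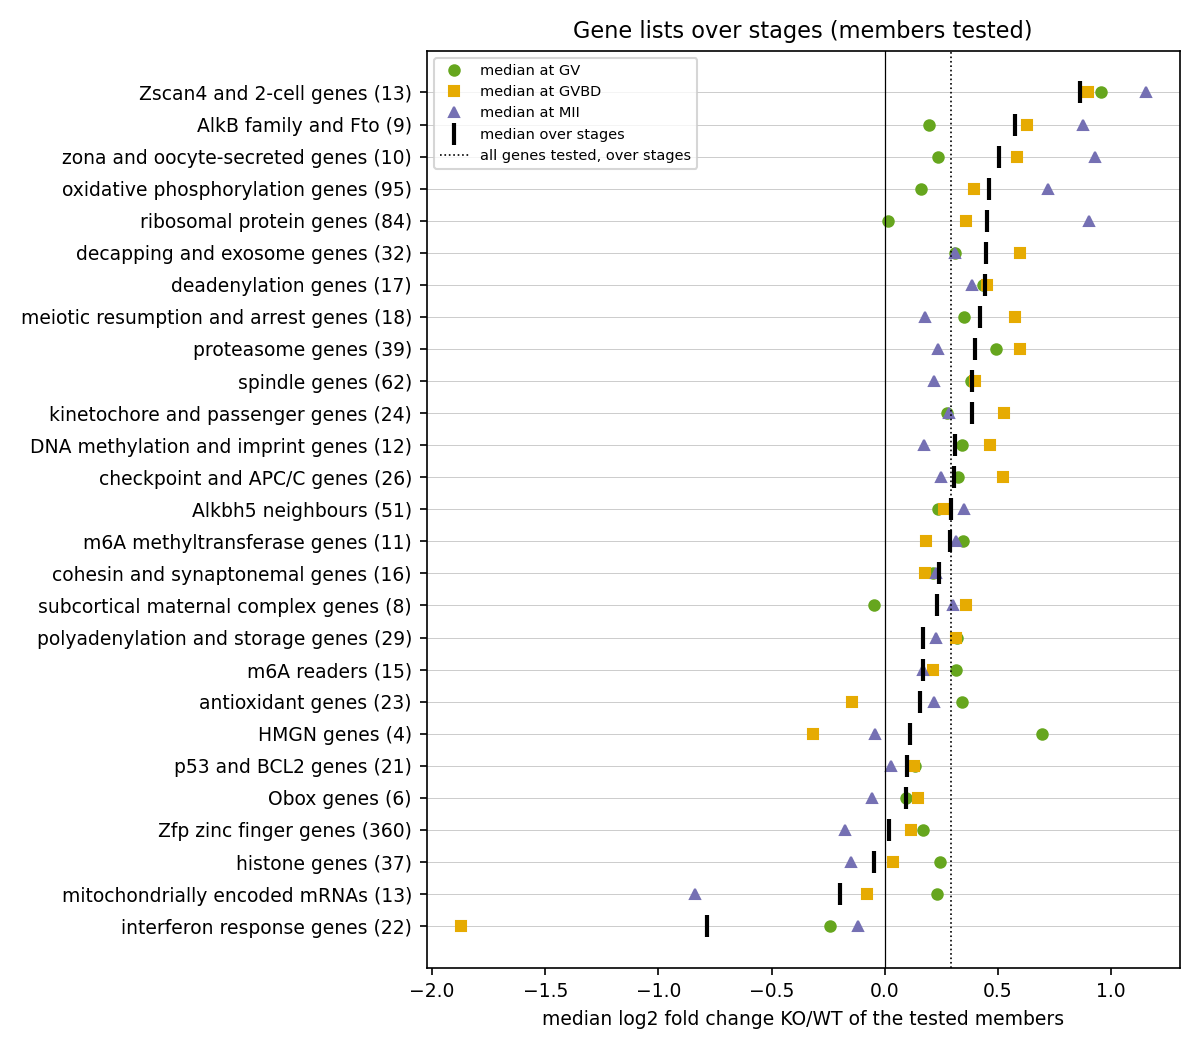
Median log2 fold change of KO over WT of the tested members of 27 gene lists at GV (circles), GVBD (squares) and MII (triangles) and over the stages (bars), with the number of members tested in brackets and a dotted line at 0.29, the median of all genes tested. The list of *Zscan4* and 2-cell genes lies highest, at 0.86 over the stages, and the interferon response genes lowest, at −0.79. The median level of the latter list varied between replicate libraries by a standard deviation of 1.58 (log2 scale).

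The called genes were spread over the genome. Among the nuclear chromosomes the share of tested genes that were called ran from 0.361% to 2.25%, with the highest on chromosome 16. No gene within 1 Mb of *Alkbh5* was called, of 51 tested, and their median of 0.29 equalled that of all genes. Another called gene lay within 200 kb of 29 of the 270 called genes with a position (10.7%), against 8.81% of all tested genes with a called gene that near. These made 18 pairs, 14 with the same direction, among them *Zscan4d* with *Zscan4e*, *Raet1e* with *Raet1d*, *Cd59a* with *Cd59b*, and *Hmgn3* with the noncoding *Gm27216*. Also among the 14 were pairs of the keratin genes, whose counts lay only in WT GVBD. So was *Gm13768* with *Gm13767*, of whose 100-base stretches 100% and 92.7% recur in other genes. Keratins made pairs of opposite direction with *Gast*. Whether neighbours shared a direction more often than other called genes was not tested. Protein-coding genes were 68.6% of those called and 71.4% of those tested, long intergenic noncoding RNAs 10.2% and 7.12%, and antisense transcripts 8.03% and 3.87%.

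Transcript sequence was described last, on the longest annotated transcript of each gene. GGACT, the most frequent form of the m6A consensus, was counted on the sense strand only. It occurred at a median of 1.06 per kb in 190 called higher genes (quartiles 0.469 and 1.51), 0.578 per kb in 80 called lower genes (quartiles 0 and 1.18) and 0.999 per kb in 21521 tested genes (quartiles 0.504 and 1.51). At least 1 copy was present in 81% of the higher genes, 71.2% of the lower genes and 84% of the tested genes. Median GC content was 48.3%, 44.9% and 48.6%, and median transcript length was 2080, 2153 and 2623 bases. The lower genes thus held fewer copies and less GC, and the quartiles of all 3 sets overlapped. A copy of the motif does not show that the site is methylated.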

How the data were processed

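RNA of pooled mouse oocytes was measured in 12 libraries, 2 per genotype and stage. The values deposited by the authors are raw counts per gene and per ERCC sequence. The methods name Cutadapt, HISAT2 against GRCm38 (mm10) with the ERCC sequences, unique mapping, StringTie and DESeq2. The submitters' processing notes give cutadapt 1.9, HISAT2 2.0.4 and StringTie 1.3.4d, whereas the paper's reporting form gives other versions of the first and second. The annotation release and use of strand are not given in the sources used here, and the extraction protocol in the labels describes another preparation. Unique mapping lowers counts of near-identical copies, and without molecular identifiers PCR copies are counted as reads.

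Symbols and positions came from GENCODE M21 (52073 of 56691 genes, 91.9%). Library sizes were proportional to summed ERCC counts (92 sequences). Genes kept by filterByExpr were fitted by quasi-likelihood in edgeR 4.0.16 under R 4.3.3 (glmQLFit, then glmQLFTest, two-sided) with stage as a covariate; the interaction and the differences at each stage came from a model of all 6 groups. The study calls the replicates biologically independent, but whether they came from separate animals is not stated, so p-values measure the spread between these pools. Code was tested on simulated data. Named are *Alkbh5*, the 12 highest and 12 lowest called genes that were separated at every stage, reached the median count and carried a full symbol, called genes of the lists (else the 2 of lowest p), and genes with a called interaction. One gene named by this rule is not reported here. Members and lists were chosen with earlier results of these data known. Marker lists of granulosa, red blood, platelet, muscle, stromal, endothelial and liver cells had 0 genes called.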

Additional observations from a re-analysis of the deposited data

Results flagged for a closer look

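The genotype effect differed between stages by the interaction test of edgeR for 2 genes, and neither was called over the stages. *Gm7970* had an adjusted interaction p of 0.0156. WT libraries had 220 and 185 (GV), 334 and 172 (GVBD) and 0 and 0 (MII) scaled counts, against 410 and 313, 311 and 314, and 242 and 352 in KO. At MII the genotypes were thus apart, with reads in KO only. *Ctla2a*, which encodes a cathepsin inhibitor, also had an adjusted interaction p of 0.0156. WT libraries had 173 and 683 (GV), 616 and 605 (GVBD) and 8.77 and 6.27 (MII) scaled counts, against 907 and 933, 18.1 and 15.4, and 100 and 155 in KO. It was lower in KO at GVBD (−5.18 ± 0.75) and higher at MII (4.08 ± 0.72). With a replicate block within stage no gene had a called interaction, with 1433 at an unadjusted p under 0.05, and the number ranged up to 628 over the settings tried.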

How the results depend on the processing

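The 274 genes called over the stages (194 higher, 80 lower) became 594 with TMM scaling (345 lower), 606 with median-of-ratios scaling (365 lower), 1181 without a filter on low counts (886 and 295), 821 with at least 10 counts in every library (676 and 145), 441 with the stages weighted equally (331 higher) and 1355 by DESeq2 (1040 and 315). They became 22 without GV (8 and 14), 5 without GVBD (2 and 3) and 99 without MII (57 and 42). Leaving out 1 library gave 52 to 943 genes, 27 to 814 of them higher and 25 to 129 lower. Interaction calls, 2 at first, numbered 236 with TMM scaling, 210 with median-of-ratios scaling, 628 without a filter, 139 with at least 10 counts in every library, 208 by DESeq2 and 0 to 119 without 1 library. The cause of these moves was not tested, apart from the smaller number of libraries where some were left out.

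Same-numbered WT and KO libraries deviated together by −0.223 at GV, 0.137 at GVBD and −0.184 at MII (correlation over genes), without a common sign. With 2 libraries per group, these values cannot decide whether the numbers pair the samples. A replicate block within stage called 519 genes (410 higher) with 0 interaction calls, and a block across stages called 671 (516 and 155) with 7. Of 33 named genes called, 18 stayed called without any 1 library. KO GVBD replicate 1 took the call from 15, WT GVBD replicate 2 from 10, KO MII replicate 2 from none and each other library from 5 to 8. *Ctla2a* (0.62 over the stages) changed sign without WT MII replicate 1 (−0.31), WT MII replicate 2 (−0.36), GV (−0.57) or MII (−1.82), and ranged up to 1.56 without 1 library. The share of called genes with a shared direction stayed between 90.9% and 100% in all settings tried. That share is partly fixed by the call, and over all genes tested it was 45.1% in the main fit. The number of molecules behind the counts is not known, which limits genes with few reads.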

Other observations

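Rearranged receptor genes were looked at after the values were seen. Of 64 T cell receptor genes tested, 31 (48.4%) were lower and 12 (18.8%) higher in KO at every stage, against 9.77% and 35.4% of all genes tested, with a median log2 fold change of −1.46 and 0 called. Of 45 immunoglobulin genes, 16 (35.6%) were higher and 4 (8.89%) lower at every stage, shares near those of all genes, with a median of 0.87. Their called shares were above those of all genes, at 4.44% higher and 2.22% lower against 0.88% and 0.363%. By edgeR, *Ighg1* (1.36 ± 0.26, adjusted p = 0.0239) and the pseudogene *Ighv1-44* (2.14 on the log2 scale, adjusted p = 0.0308) were called higher and *Iglc3* (−1.03 ± 0.22, adjusted p = 0.04) lower. *Ighg1* passed in 5 and *Iglc3* in 2 of the 12 fits that left out a library. These genes belong to families of similar sequence, so their counts are uncertain.

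The mitochondrial 16S ribosomal RNA *mt-Rnr2*, also named after its value was seen, had 91319 to 152415 scaled counts in WT and 183129 to 390082 in KO (1.15 ± 0.23, adjusted p = 0.0319 by edgeR), with every KO library above every WT library. It passed in 3 of the 12 fits that left out a library. None of the 13 mRNAs of the same genome was called, and their median was −0.20. The difference between the ribosomal RNA and the mRNAs was not tested.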
